A study of Mus musculus with 15 samples.

Results

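The genes described here encode the metalloproteases of the MMP, ADAM and ADAMTS families, the ADAMTS-like proteins and the tissue inhibitors of metalloproteases, the TIMPs. They were taken as every row whose gene symbol was Mmp, Adam, Adamts, Adamtsl or Timp followed by a number, with 1 further letter allowed for Mmp and Adam. The rule found 84 of the 27179 genes in each of the authors' deposited tables: 23 MMPs, 33 ADAMs, 19 ADAMTS genes, 5 ADAMTS-like genes and 4 TIMPs. The cells were mouse induced renal tubular epithelial cells (iRECs), fibroblasts turned into tubule-like epithelium by introduced transcription factors. RNA was sequenced from 5 conditions with 3 libraries each, all in Renal Epithelial Growth Medium (REGM) and harvested on day 7. The control cells grew in 2D without added matrix. Matrigel (a basement membrane extract), Fibrin (the polymer of blood clots) and Collagen I (the main fibrillar collagen) held cells dispensed by hand, and in the Printed cultures an inkjet bioprinter dispensed the cells with Fibrin and Collagen I. The libraries of a condition came from passages 35, 48 and 53 of 1 line, and at each passage all conditions were set up from a common pool of cells. They are therefore repeats within 1 line and not separate animals, and p-values measure the spread between these repeats only. Each of the authors' 4 deposited tables compares 1 microenvironment with 2D over 6 libraries, and all 4 share the same 3 libraries of 2D.

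MMPs are zinc proteases, secreted or anchored in the membrane, that together can cleave most proteins of the extracellular matrix. They are made as inactive proenzymes. ADAMs are membrane proteins, several of which release growth factors, cytokines and receptors from the cell surface, and ADAMTS proteases are secreted and cut proteoglycans, procollagens and other matrix proteins. TIMPs bind the active site of these enzymes. In the kidney tubule the families are known for their part in basement membrane turnover, in tubule growth and in the release of ligands of the EGF receptor.

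Many inducible MMP genes lie side by side on mouse chromosome 9, and a match to the AP-1 motif close to the transcription start is a well-known feature of their promoters. The 100 bases before the RefSeq start are shown for 4 genes of this cluster, Mmp13 and Mmp10, whose reads were largely from Fibrin, and Mmp12 and Mmp3, which had few or almost no reads. They are from the RefSeq promoter table of GRCm38, all on the plus strand, 5′ to 3′, with the match in capitals. For Mmp12 the window is that of the second of its start sites in the table.
Mmp13, chr9:7272414-7272513: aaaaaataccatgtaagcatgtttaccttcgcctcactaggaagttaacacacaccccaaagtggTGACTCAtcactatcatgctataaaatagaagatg
Mmp10, chr9:7502242-7502341: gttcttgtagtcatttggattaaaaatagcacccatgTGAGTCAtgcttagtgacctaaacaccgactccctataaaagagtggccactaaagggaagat
Mmp12, chr9:7347274-7347373: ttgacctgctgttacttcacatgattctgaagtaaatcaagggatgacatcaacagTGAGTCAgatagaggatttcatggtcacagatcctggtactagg
Mmp3, chr9:7445722-7445821: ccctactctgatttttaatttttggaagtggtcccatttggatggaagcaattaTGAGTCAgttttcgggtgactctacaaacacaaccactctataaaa

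The motif searched was TGANTCA, which reads the same on both strands, and no other motif was searched. In windows from 250 bases before to 50 bases after each start it was found in 2565 of 32851 windows of all genes (7.81%). The windows of 53 of the protease and TIMP genes were in the table, and 13 of their 58 windows held it (22.4%). The first base of the match lay 35 bases before the start in Mmp13, 44 in Mmp12, 46 in Mmp3 and 63 in Mmp10. Of the 10 MMP genes between positions 7272514 and 7699585 of chromosome 9, 8 had a match, and 1 of these 10, Mmp13, reached a base mean of 10. Of the 35 members that reached a base mean of 10, 22 had a window in the table, and 2 of their 23 windows held it (8.70%), those of Mmp13 and Adam1b. A match is a run of letters and not a measured binding site.

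The authors' deposited tables give for each gene a base mean, the mean over the 6 libraries of read counts divided by size factors, and a log2 fold change over 2D with its standard error, written here after ±. The base mean averaged over the 4 tables was 10 or more for 35 of the 84 genes: 10 MMPs, 12 ADAMs, 7 ADAMTS genes, 3 ADAMTS-like genes and 3 TIMPs. A further 35 lay between 0 and 10, and 14 had no read in any library of the authors' deposited tables. Nearest above the minimum were Adam23 (mean base mean 12.0), Adam4 (10.9) and Mmp13 (10.2), and nearest below it Adamts15 (9.97), Adamts13 (9.52) and Adam19 (9.19), from the authors' deposited tables. Counted table by table, 36 members reached 10 with Fibrin, 35 in Printed, 34 with Collagen I and 32 with Matrigel. Of the 35 genes, 31 reached it in all 4 of the authors' deposited tables, and Mmp13 passed only through Fibrin, so its difference there is partly set by the minimum. The members' base means summed to between 0.155% and 0.176% of all base means in the authors' deposited tables. All base means together came to 42789952 to 45388657 normalized reads per table, while the depth of single libraries is unknown. Standard errors in the authors' deposited tables had a median of 0.19 to 0.23 on the log2 scale where base means were at least 100, which limits what single genes can show. The tubule epithelial genes Epcam, Cdh1, Krt8, Krt18 and Pax8, and Hnf4a and Emx2 among the introduced factors, had base means between 220.4 and 24037 in the authors' deposited tables.

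A base mean is the mean of both groups of a table, so the level of each condition can be estimated from it and the fold change. Such levels, computed from the authors' deposited tables on 1 common scale of normalized reads per library, are called levels below and carry no error of their own. They are approximate, because the authors' fit shrank the fold changes, and are least certain where reads are few. For Mmp13 the authors' deposited tables implied levels in 2D from 0.998 to 19.2, although at most 1.94 is possible. For the abundant Adam9 they implied 12101 to 12452. Divided by the length of all exons (GENCODE M21), the highest levels in 2D were those of Adam9, with 2974 normalized reads per kb, Adamts1 with 2198, Timp1 with 2061, Mmp14 with 1861 and Timp2 with 1829, from the authors' deposited tables. These 5 genes held 63.9% of the summed level per kb of the 35. Adam10 and Adam15 followed at 1187 and 1032 per kb, and 20.6% of the exon bases of Adam15 are shared with 4731419I09Rik on the opposite strand. Per kb, the gelatinase gene Mmp2 stood at 35.0 in 2D and Adam12 at 3.55, again from the authors' deposited tables. The leading protease genes per kb were thus 1 membrane-type MMP, 1 proteoglycanase and 3 ADAMs, with the inhibitor genes Timp1 and Timp2 at levels per kb close to that of Mmp14.

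**Figure D1:**
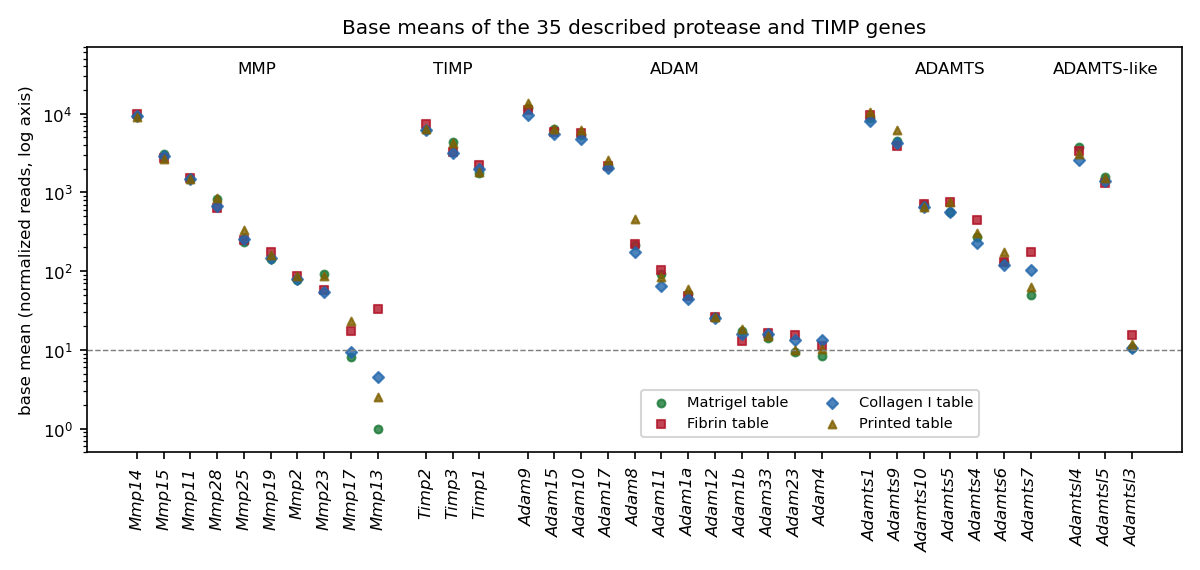
Base means of the 35 genes in the authors' 4 deposited tables, as normalized reads on a log axis, grouped by family, with a dashed line at the minimum of 10. Adam9, Mmp14 and Adamts1 are highest, and Mmp13 spreads most between tables, from 0.983 in the Matrigel table to 32.6 in the Fibrin table.

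A gene was called changed where the adjusted p in the authors' deposited table, from their Wald test, was under 0.05. In Matrigel 11 of 34 members tested changed, against 6.62% of all genes that reached the same minimum. Of these, 3 rose (all genes 4.2%) and 8 fell (all genes 2.42%) in the authors' deposited table. In Fibrin 9 of 35 changed, against 8.51% of all genes, with 3 risen (all genes 5.27%) and 6 fallen (all genes 3.25%) in the authors' deposited table. The 3 risen include Mmp13, which reached the minimum only through that table and so had to be high there. In Collagen I 8 of 34 changed, against 11.2% of all genes, and all 8 fell (all genes 4.7%). None rose there by the Wald test of the authors' deposited table (all genes 6.55%). At an unadjusted p under 0.05 in that test, 4 members were higher and 15 lower, and the share of all genes at that threshold is not given here. In the Printed cultures 5 of 34 changed, against 3.42% of all genes, with 2 risen (all genes 2.69%) and 3 fallen (all genes 0.728%) in the authors' deposited table. The 2 risen include Mmp17, which reached the minimum in the Printed and Fibrin tables only. In Printed falls no longer outnumbered rises at an adjusted p under 0.01 (1 risen and 0 fallen). The same held with the Wald statistics rescaled to their own spread or a base mean of 100 or more (1 and 1 each). The median log2 fold change of the members was -0.26 in Matrigel, -0.07 in Fibrin, -0.34 in Collagen I and -0.10 in Printed. Over all genes tested in the authors' deposited tables it lay at -0.00, 0.00, 0.01 and 0.01. Fewer cells of one state and less RNA per cell cannot be told apart in these bulk libraries.

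The Wald statistics of all tested genes were spread 1.27 times as widely as a standard normal in Matrigel, 1.35 in Fibrin, 1.57 in Collagen I and 1.11 in Printed. With the statistics of the authors' deposited tables rescaled to that spread (an empirical null), calls fell to 3 members in Matrigel, 3 in Fibrin, 2 in Collagen I and 2 in Printed. The share of all genes called then fell too, to 2.66%, 2.36%, 1.05% and 1.93%. The calls that passed in both ways were Adam12, Adamts1 and Mmp25 in Matrigel, Adamts7, Mmp28 and Timp3 in Fibrin, Mmp28 and Timp3 in Collagen I, and Adamts9 and Mmp2 in Printed, from the authors' deposited tables.

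**Figure D2:**
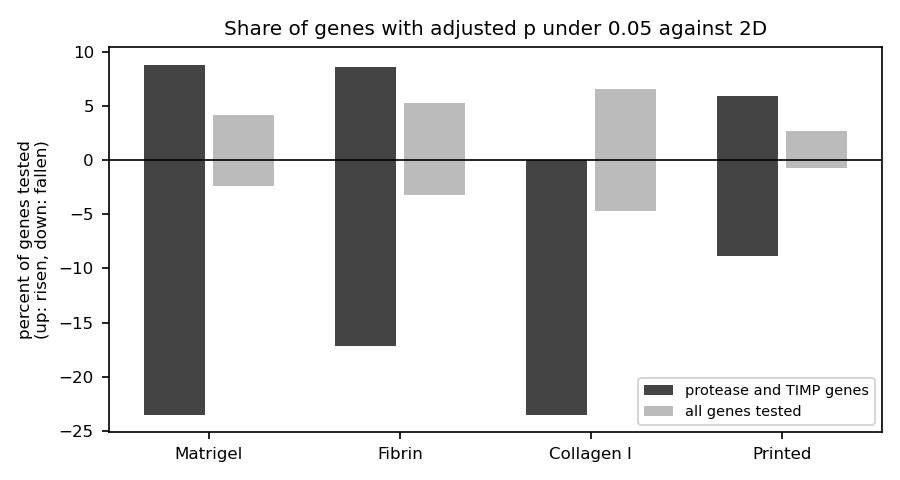
Share of genes risen (upward bars) and fallen (downward bars) against 2D at an adjusted p under 0.05 in the authors' deposited tables, for the 34 or 35 protease and TIMP genes tested (dark) and all genes tested (light). Fallen members outnumber risen ones in each comparison at this threshold, in Printed by 3 to 2 only, and in Collagen I no member rose.

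By gene, Adam12 and Mmp2 fell in all 4 comparisons of the authors' deposited tables and Mmp28 in 3. Adamts1, Adamts5, Adamts9, Mmp14, Mmp25 and Timp3 were called in 2, a further 10 genes in 1, and 16 in none. Because all comparisons share the libraries of 2D, a low or high value in 2D moves all 4 in the same direction, and a repeated call is not an independent repeat.

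**Figure D3:**
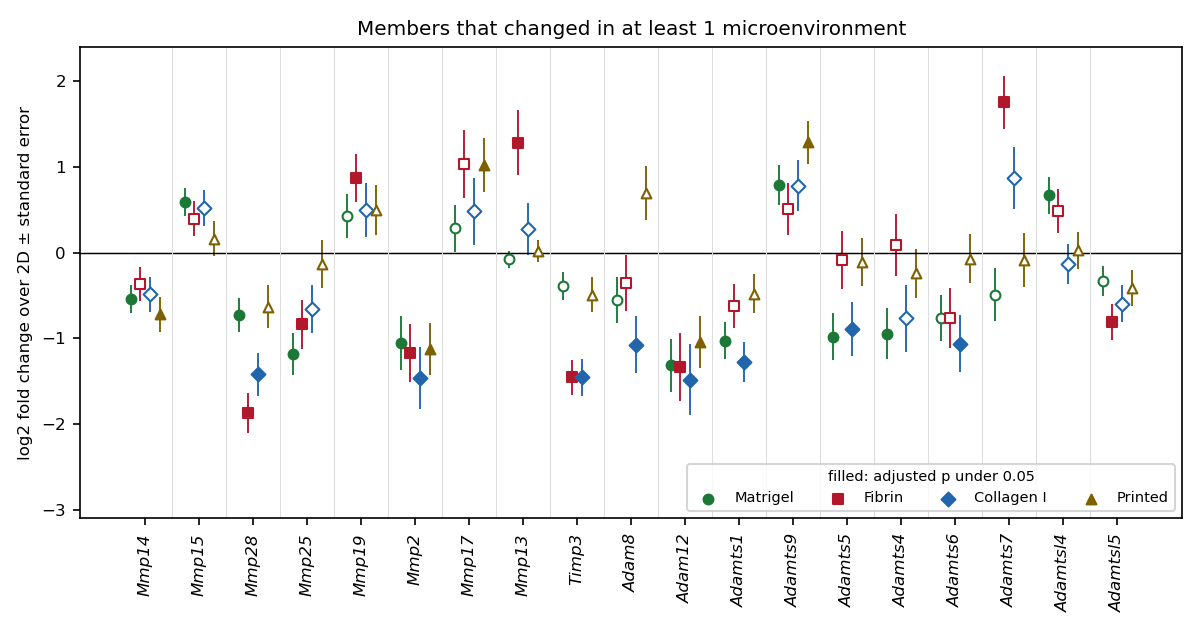
Log2 fold change over 2D with its standard error in the authors' 4 deposited tables for the 19 genes called in at least 1 comparison, ordered by family and level. Filled symbols have an adjusted p under 0.05, and open symbols do not or have none. Adam12 and Mmp2 lie below 0 in all 4, Adamts9 and Mmp15, among others, above 0 in all 4, and Adamts7 on both sides.

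Among the membrane-type MMPs, Mmp14 was the most abundant MMP gene. Mmp14 (GRCm38 chr14:54431598-54442456, plus strand) encodes MT1-MMP, which cleaves fibrillar collagen at the cell surface and activates pro-MMP2. Levels of Mmp14 from the authors' deposited tables were 11090 in 2D, 7573 in Matrigel, 8694 in Fibrin, 7989 in Collagen I and 6614 in Printed, so that 2D was highest. The fall passed in Matrigel (log2 -0.54 ± 0.16, adjusted p 0.0197) and Printed (-0.72 ± 0.20, adjusted p 0.0199) in the authors' deposited tables. In Fibrin (-0.36 ± 0.20) and Collagen I (-0.49 ± 0.20) the fold change in the authors' deposited tables did not pass (adjusted p 0.314 and 0.105). Mmp15 (chr8:95352296-95374293, plus strand), which encodes MT2-MMP, had the opposite sign. Levels of Mmp15 from the authors' deposited tables were 2420 in 2D, 3699 in Matrigel, 3132 in Fibrin, 3526 in Collagen I and 2656 in Printed. It rose in Matrigel (log2 0.59 ± 0.16, adjusted p 0.00878) in the authors' deposited table. The other fold changes of Mmp15 in the authors' deposited tables were 0.40, 0.52 and 0.16 in the same order, none past the threshold.

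Mmp17 (chr5:129584151-129611099, plus strand) and Mmp25 (chr17:23628315-23645269, minus strand) encode the MMPs held in the membrane by a glycolipid anchor, and both were far less abundant than Mmp14. Mmp25 fell in Matrigel (log2 -1.18 ± 0.24, adjusted p 6.9e-05) and in Fibrin (-0.84 ± 0.28, adjusted p 0.0407) in the authors' deposited tables. Levels of Mmp25 from the authors' deposited tables were 323 in 2D, 136 in Matrigel, 178 in Fibrin, 207 in Collagen I and 317 in Printed. Printed cultures were thus close to 2D and Matrigel was lowest. In Collagen I (-0.66 ± 0.28) and Printed (-0.13 ± 0.27) the fold change of Mmp25 in the authors' deposited tables did not pass, and the Fibrin call was lost when p-values were adjusted over every gene with a p-value. Mmp17 rose in Printed (log2 1.03 ± 0.32, adjusted p 0.0390) in the authors' deposited table. Its base means in the authors' deposited tables were only 23.0 in Printed, 17.2 in Fibrin, 9.32 in Collagen I and 8.18 in Matrigel. Mmp17 thus reached the minimum of 10 only in the Printed and Fibrin tables, so that its rise in Printed is partly set by the minimum. In Fibrin the fold change in the authors' deposited table was as large, 1.04 ± 0.40, and did not pass (adjusted p 0.0830). The Printed call of Mmp17 was lost when adjusted over every gene with a p-value, and its ratio of levels was 2.19 on the log2 scale, from the authors' deposited tables. Mmp16 and Mmp24 had base means under 10.

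Mmp2 (chr8:92827290-92853421, plus strand) encodes gelatinase A, which degrades denatured collagen and collagen IV. Levels of Mmp2 from the authors' deposited tables were 118 in 2D, 34.6 in Matrigel, 57.3 in Fibrin, 46.3 in Collagen I and 50.6 in Printed, below 2D in each. The log2 fold changes in the authors' deposited tables were -1.05 ± 0.32 in Matrigel (adjusted p 0.0194), -1.17 ± 0.34 in Fibrin (0.0117), -1.46 ± 0.36 in Collagen I (0.00126) and -1.12 ± 0.31 in Printed (0.0133). All 4 passed, and for Matrigel the ratio of levels was larger than the deposited value, -1.79 on the log2 scale from the authors' deposited tables. The other gelatinase gene, Mmp9, had base means from 1.07 to 6.05 in the authors' deposited tables and was not tested.

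Fibroblast markers, which could mark cells that kept a fibroblast state, were given by a list of 8 genes. Their summed base mean in the authors' deposited tables lay between 209.5 (Collagen I) and 316.7 (Matrigel), and 3 of the 8, Col1a1, Pdgfra and Pdgfrb, reached a mean base mean of 10. Of these, Col1a1 fell in Fibrin (log2 -1.49 ± 0.33) and Collagen I (-2.35 ± 0.33) and Pdgfra fell in Fibrin (-1.19 ± 0.39) in the authors' deposited tables. Pdgfra in the other comparisons was at -0.61 ± 0.32 (Matrigel), -0.78 ± 0.41 (Collagen I) and -0.21 ± 0.33 (Printed), without a call in the authors' deposited tables. Pdgfrb did not pass in any, at -0.50 ± 0.31 in Matrigel, 0.13 ± 0.39 in Fibrin, -0.89 ± 0.42 in Collagen I and -0.13 ± 0.31 in Printed in the authors' deposited tables. A further 3 genes of the list had their highest base mean in the Matrigel table: Col1a2 (24.9, against at most 0.324 in the others), Col3a1 (16.0, at most 1.79) and Lum (10.9, at most 5.18), none of them called in the authors' deposited tables. In Matrigel and Printed, where Mmp2 and Adam12 fell too, Col1a1 was at -0.73 ± 0.31 and -0.72 ± 0.32 in the authors' deposited tables and did not pass. Thy1 had no read in 3 of the authors' deposited tables and a base mean of 0.333 in the Printed one. The part of such cells in the falls of Mmp2 and Adam12 was not tested.

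The collagenase genes and the stromelysin genes Mmp3 and Mmp10 had base means under 10 in all of the authors' deposited tables, except Mmp13 in the Fibrin one. Mmp13 (chr9:7272514-7283333, plus strand) encodes collagenase 3, which cleaves fibrillar collagens. Its base mean in the authors' deposited tables was 32.6 with Fibrin, against 0.983 with Matrigel, 4.60 with Collagen I and 2.50 in Printed. The Matrigel table allows a level in 2D of at most 1.94, and with it the Fibrin cultures averaged at least 63.9 normalized reads per library, from the authors' deposited tables. The log2 fold change in Fibrin in the authors' deposited table was 1.28 ± 0.38 (adjusted p 0.0135) and was much smaller than the distance between these levels. The other 3 of the authors' deposited tables gave Mmp13 no adjusted p. Mmp10 (chr9:7502342-7510242, plus strand) encodes stromelysin 2, which cleaves matrix proteins other than fibrillar collagen. It had a base mean of 0 in the Matrigel and Printed tables, so none of the libraries of 2D, Matrigel or Printed held a read, from the authors' deposited tables. In Fibrin its base mean was 6.27, a level of 12.7, and in Collagen I 2.10, a level of 4.34, from the authors' deposited tables. The Fibrin fold change of Mmp10 in the authors' deposited table, log2 0.72 ± 0.32, did not pass (adjusted p 0.166).

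**Figure D4:**
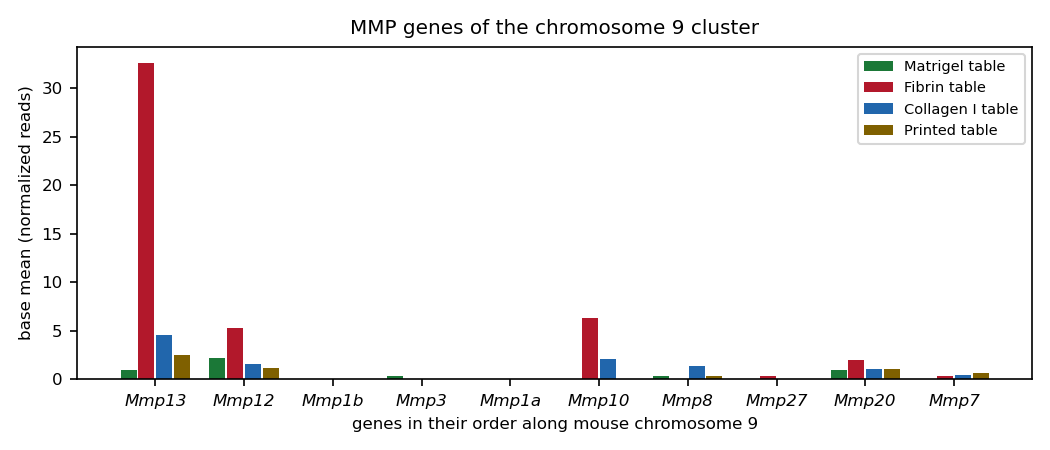
Base means, as normalized reads on a linear axis, of the 10 MMP genes of the chromosome 9 cluster in the authors' 4 deposited tables, in chromosome order. The bar of Mmp13 in the Fibrin table reaches 32.6, and the next highest bar is that of Mmp10 in the same table at 6.27.

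Within the cluster, Mmp12, the macrophage elastase gene, had its highest base mean in the Fibrin table too (5.26, against 1.19 to 2.21 in the other 3 of the authors' deposited tables). Mmp1a and Mmp1b had no read, and Mmp3 reached 0.313 in the Matrigel table only, from the authors' deposited tables. Leukocyte markers were measured beside these genes, since Mmp12 and Mmp13 are also made by macrophages. Their summed base mean in the authors' deposited tables was 7153 in the Fibrin table and 3922 to 5031 in the others, and 2 of the 8 were under 1 in each table. Most of it was Cd14, at 6348 in Fibrin, 3613 in Matrigel, 3115 in Collagen I and 3353 in Printed in the authors' deposited tables. The next most abundant, Cd68 and Csf1r, had their highest base means in Printed (944 and 722), against 359 and 415 in Fibrin, in the authors' deposited tables. Cd14, which is also expressed by epithelial cells, and Itgam rose in Fibrin (log2 1.54 ± 0.22 and 1.24 ± 0.40) in the authors' deposited table. The other 2 markers with enough reads did not pass there and were below 0, Csf1r at -0.58 ± 0.24 and Cd68 at -0.24 ± 0.28 in the authors' deposited table. The pan-leukocyte gene Ptprc had a base mean of 0.646 to 3.02, Adgre1 of 0.261 to 1.25, and Tyrobp was at 0 in 3 of the authors' deposited tables and at 0.175 in the Matrigel one. The part of such cells in the Mmp13 result was not tested.

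Of the other MMPs, Mmp28 and Mmp19 were called. Mmp28 (chr11:83440768-83463040, minus strand) encodes epilysin, a secreted MMP of epithelia. Levels of Mmp28 from the authors' deposited tables were 1008 in 2D, 614 in Matrigel, 272 in Fibrin, 377 in Collagen I and 652 in Printed. It fell in Fibrin (log2 -1.87 ± 0.23, 3.66-fold lower, adjusted p 3.8e-13), Collagen I (-1.42 ± 0.25, 1.4e-06) and Matrigel (-0.73 ± 0.20, 0.00679) in the authors' deposited tables. In Printed the fold change in the authors' deposited table was -0.63 ± 0.25 and did not pass (adjusted p 0.203). Fibrin and Collagen I were therefore lowest, and the Printed level was closest to that of 2D. Mmp28 shares 12.0% of its exon bases with 1700020L24Rik on the opposite strand, and the strand setting of the counting is not given in the sources used here. Mmp19 (chr10:128790910-128800827, plus strand), which encodes a secreted MMP of basement membrane substrates, rose in Fibrin (log2 0.87 ± 0.28, adjusted p 0.0266) in the authors' deposited table. Levels of Mmp19 from the authors' deposited tables were 124 in 2D, 162 in Matrigel, 229 in Fibrin, 175 in Collagen I and 184 in Printed, highest in Fibrin. The other fold changes of Mmp19 in the authors' deposited tables were 0.43 in Matrigel, 0.50 in Collagen I and 0.50 in Printed, and 22.3% of its exon bases are shared with Tmem198b on the opposite strand. Mmp11, the stromelysin 3 gene, and Mmp23 did not pass in any comparison, with base means up to 1507 and 92.6 in the authors' deposited tables.

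Of the 3 TIMP genes described, Timp3 alone was called. Timp3 (chr10:86300412-86349505, plus strand) encodes the TIMP that stays bound to the matrix and also inhibits ADAM17 and the ADAMTS proteoglycanases. Levels of Timp3 from the authors' deposited tables were 4783 in 2D, 3810 in Matrigel, 1734 in Fibrin, 1725 in Collagen I and 3425 in Printed. It fell 2.74-fold in Fibrin (log2 -1.45 ± 0.20, adjusted p 1.9e-10) and 2.73-fold in Collagen I (-1.45 ± 0.22, adjusted p 4.6e-09) in the authors' deposited tables. In Matrigel (-0.38 ± 0.16, adjusted p 0.169) and Printed (-0.49 ± 0.21, adjusted p 0.250) it did not pass in the authors' deposited tables. Fibrin and Collagen I thus had nearly the same level of Timp3, well under those of the other conditions. Timp3 shares 21.3% of its exon bases with Syn3 on the opposite strand.

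Timp1 and Timp2 did not pass in any comparison. Timp2, which forms the complex through which MMP14 activates pro-MMP2, had levels from 5132 in Printed to 7883 in Fibrin from the authors' deposited tables, with 7126 in 2D. Its log2 fold changes in the authors' deposited tables were -0.44 ± 0.16, 0.13 ± 0.21, -0.36 ± 0.24 and -0.44 ± 0.22 in Matrigel, Fibrin, Collagen I and Printed. Timp1, an inducible inhibitor that acts poorly on several membrane-type MMPs, ranged from 1610 in Matrigel to 2640 in Fibrin, with 1831 in 2D, from the authors' deposited tables. Timp4 had a base mean of at most 0.627 in the authors' deposited tables.

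Of the 12 ADAM genes described, Adam12 and Adam8 were called. Adam12 (chr7:133883199-134225097, minus strand) encodes a protease of mesenchymal and growing cells that sheds HB-EGF and cleaves IGF binding proteins. Levels of Adam12 from the authors' deposited tables were 37.6 in 2D and 14.9, 15.1, 15.1 and 13.3 in Matrigel, Fibrin, Collagen I and Printed, so that 2D was highest and the others lay close together. The fall in the authors' deposited tables was -1.31 ± 0.31 (log2) in Matrigel (adjusted p 0.00115), -1.33 ± 0.40 in Fibrin (0.0140), -1.48 ± 0.42 in Collagen I (0.00673) and -1.04 ± 0.30 in Printed (0.0250). With base means between 25.5 and 26.6 in the authors' deposited tables, these values rest on few reads.

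Adam8 (chr7:139978932-139995207, minus strand), which encodes a protease induced in inflammation and known from leukocytes and injured epithelium, was lowest in Collagen I and highest in Printed. Levels of Adam8 from the authors' deposited tables were 251 in 2D, 168 in Matrigel, 201 in Fibrin, 112 in Collagen I and 649.7 in Printed. It fell in Collagen I (log2 -1.08 ± 0.33, adjusted p 0.0165) in the authors' deposited table. In Printed the fold change in the authors' deposited table was 0.69 ± 0.32 (adjusted p 0.323), while the ratio of levels was 1.38 on the log2 scale. In Matrigel and Fibrin it was -0.55 ± 0.27 and -0.35 ± 0.33 in the authors' deposited tables, and neither passed. Of the leukocyte markers, Cd68 (base mean 944, adjusted p 2.1e-09) and Csf1r (log2 0.71 ± 0.22) rose in Printed, and Csf1r fell in Collagen I (-1.50 ± 0.27), in the authors' deposited tables. In Collagen I, Cd68 (0.37 ± 0.28), Itgam (0.91 ± 0.42) and Cd14 (0.13 ± 0.23) were above 0 without passing, and in Printed Cd14 (0.13 ± 0.23) and Itgam (0.02 ± 0.27) did not pass, in the authors' deposited tables. In Matrigel, where Adam8 was not called, Csf1r fell too (-1.31 ± 0.23) in the authors' deposited table. Ptprc and Tyrobp were at base means of 1.33 and 0 in the Printed one of the authors' deposited tables, and the part of such cells in the Adam8 result was not tested.

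The sheddase genes Adam10 and Adam17, which encode the main proteases for NOTCH receptors and for TNF and EGF receptor ligands, did not pass in any comparison. Their log2 fold changes in the authors' deposited tables ran from -0.53 (Collagen I) to 0.08 (Printed) for Adam10 and from 0.00 (Collagen I) to 0.39 (Printed) for Adam17. The smallest adjusted p among all members without a call was that of Adam9 in Collagen I (log2 -0.63 ± 0.24, adjusted p 0.0678) in the authors' deposited tables. Adam15 ranged from -0.28 to 0.01 in the authors' deposited tables. Adam11 and Adam23, which lack an active protease site, and the less abundant Adam1a, Adam1b, Adam4 and Adam33 also had no call. Adam1a and Adam1b are closely related copies, and 63.7% of the exon bases of Adam1a lie in Gm42878 on the same strand, so their counts are uncertain.

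The ADAMTS proteoglycanases cut aggrecan and versican. In Matrigel all 4 with enough reads changed, Adamts1, Adamts4 and Adamts5 falling and Adamts9 rising, in the authors' deposited table, where 6.62% of all genes changed. With the empirical null, Adamts1 kept its call in Matrigel and the other 3 lost theirs. Adamts1 (chr16:85793827-85803113, minus strand) was the most abundant of them, with a level from the authors' deposited tables of 11655 in 2D, 5490 in Matrigel, 7683 in Fibrin, 4738 in Collagen I and 8531 in Printed. It fell in Collagen I (log2 -1.27 ± 0.24, 2.42-fold lower, adjusted p 6.9e-06) and Matrigel (-1.03 ± 0.21, adjusted p 0.000107) in the authors' deposited tables. In Fibrin (-0.62 ± 0.25, adjusted p 0.118) and Printed (-0.48 ± 0.23, adjusted p 0.391) it did not pass in the authors' deposited tables. All 4 levels lay below that of 2D.

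Adamts5 (chr16:85858157-85901125, minus strand) lies close to Adamts1 on chromosome 16 and was likewise lowest in Matrigel and Collagen I. From the authors' deposited tables, its level was 760.3 in 2D, 333 in Matrigel, 770.4 in Fibrin, 382 in Collagen I and 737 in Printed. It fell in Matrigel (log2 -0.98 ± 0.27, adjusted p 0.00919) and Collagen I (-0.89 ± 0.32, adjusted p 0.0443) in the authors' deposited tables. Fibrin (-0.08 ± 0.34) and Printed (-0.11 ± 0.28) stayed close to 0 in the authors' deposited tables, and the Collagen I call was lost when adjusted over every gene with a p-value. Adamts4 (chr1:171250129-171262267, plus strand), the gene of an aggrecanase induced by inflammation, had levels from the authors' deposited tables of 338 in 2D, 211 in Matrigel, 584 in Fibrin, 123 in Collagen I and 245 in Printed. It fell in Matrigel (log2 -0.94 ± 0.29, adjusted p 0.0263) in the authors' deposited table, with a smaller ratio of levels of -0.62 on the log2 scale. In Fibrin (0.09 ± 0.36), Collagen I (-0.77 ± 0.39) and Printed (-0.24 ± 0.28) the fold change of Adamts4 in the authors' deposited tables did not pass. The deposited tables implied levels of Adamts4 in 2D from 299 to 439. Its Fibrin level is therefore uncertain, and the fold change there was near 0.

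Adamts9 (chr6:92772699-92944450, minus strand) encodes a versican-degrading protease that is also linked to cilium formation. Levels of Adamts9 from the authors' deposited tables were 3234 in 2D, 5611 in Matrigel, 4578 in Fibrin, 5546 in Collagen I and 8724 in Printed, above 2D in each. It rose 2.44-fold in Printed (log2 1.29 ± 0.25, adjusted p 6.1e-05) and 1.73-fold in Matrigel (0.79 ± 0.23, adjusted p 0.0132) in the authors' deposited tables. In Collagen I the fold change in the authors' deposited table was nearly that of Matrigel, 0.78 ± 0.30, with an adjusted p of 0.0656, and in Fibrin it was 0.51 ± 0.31. A730049H05Rik on the opposite strand shares 9.18% of its exon bases.

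Among the other ADAMTS genes, Adamts7 had the largest rise. Adamts7 (chr9:90162904-90200102, plus strand) encodes a protease of cartilage oligomeric matrix protein, studied in vessel walls and joints. Levels of Adamts7 from the authors' deposited tables were 68.8 in 2D, 24.7 in Matrigel, 288 in Fibrin, 150.4 in Collagen I and 46.0 in Printed. It rose in Fibrin (log2 1.76 ± 0.31, 3.38-fold, adjusted p 1.4e-06) in the authors' deposited table, with a ratio of levels of 2.20 on the log2 scale. Collagen I (0.87 ± 0.36, adjusted p 0.104), Matrigel (-0.49 ± 0.31) and Printed (-0.08 ± 0.32) did not pass in the authors' deposited tables. Adamts6 (chr13:104286518-104496695, plus strand), the product of which acts on fibrillin microfibrils, fell in Collagen I (log2 -1.06 ± 0.34, adjusted p 0.0204) in the authors' deposited table. Its fold changes in the authors' deposited tables were -0.76 in Matrigel, -0.77 in Fibrin and -0.07 in Printed, and its level was 166 in 2D against 78.2 in Collagen I. Adamts10 did not pass. Of the procollagen N-proteinase genes, Adamts2 had reads in the Collagen I table only, with a base mean of 2.25 in the authors' deposited tables.

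ADAMTS-like proteins lack the protease domain and bind microfibrils. Adamtsl4 (chr3:95676201-95687927, minus strand) rose in Matrigel (log2 0.67 ± 0.21, adjusted p 0.0316) in the authors' deposited table, from a level of 2851 in 2D to 4591. Its fold changes in the authors' deposited tables were 0.49 in Fibrin, -0.13 in Collagen I and 0.03 in Printed, not past the threshold. Adamtsl5 (chr10:80339793-80349030, minus strand) fell in Fibrin (log2 -0.81 ± 0.21, adjusted p 0.00340) in the authors' deposited table, from 1705 to 954. It was at -0.33 in Matrigel, -0.59 in Collagen I and -0.41 in Printed in the authors' deposited tables, again without a call, and Adamtsl3 had none either.

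The fold changes of 2 microenvironments were then compared directly, by dividing their difference by the combined standard error (the squares of both errors summed, then the square root), adjusted by Benjamini-Hochberg over the 14018 genes that reached the minimum. Because the libraries of 2D enter both standard errors although they cancel in the difference, this statistic is, if anything, too small. Of 35 members, 4 differed between Matrigel and Fibrin (all genes 1.24%), Mmp13 among them, 1 between Matrigel and Collagen I (0.485%), 2 between Fibrin and Printed (1.58%) and 1 between Collagen I and Printed (0.913%), from the authors' deposited tables. None differed between Matrigel and Printed (all genes 0.635%) or between Fibrin and Collagen I (0.628%) by this normal test on the authors' deposited tables. At an unadjusted p under 0.05, 4 and 1 members differed in these pairs, and with an empirical null 1 (Adam8) and 4 (Adam11, Adamts1, Adamts7 and Mmp13). The shares of all genes at these settings are not given here, so these counts cannot be set against them.

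Timp3 was higher in Matrigel than in Fibrin by 1.07 ± 0.26 on the log2 scale (95% interval 0.56 to 1.58, adjusted p 0.00712) and than in Collagen I by 1.07 ± 0.27 (adjusted p 0.0216), from the authors' deposited tables. Between Fibrin and Collagen I the difference of Timp3 was -0.00, with an interval of -0.58 to 0.58, from the authors' deposited tables. Against Printed, Timp3 in Fibrin was at -0.96 (interval -1.53 to -0.40, adjusted p 0.0527) from the authors' deposited tables, just outside the threshold, and the pair passed after centring and with an empirical null. Mmp28 was higher in Matrigel than in Fibrin by 1.14 ± 0.30 (adjusted p 0.0193), and lower in Fibrin than in Printed, at -1.24 ± 0.34 (adjusted p 0.0253), from the authors' deposited tables. Unlike for Timp3, Matrigel against Collagen I did not pass for Mmp28, at 0.69 ± 0.32 (adjusted p 0.669), nor did Collagen I against Printed, at -0.79 ± 0.35 (adjusted p 0.599), from the authors' deposited tables.

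Adamts7 was lower in Matrigel than in Fibrin, at -2.25 ± 0.44 (adjusted p 0.000109), and higher in Fibrin than in Printed by 1.84 ± 0.44 (adjusted p 0.00412), from the authors' deposited tables. Mmp13 was lower in Matrigel than in Fibrin, at -1.36 ± 0.39 (adjusted p 0.0454), from the authors' deposited tables. Since Mmp13 reached the minimum only through Fibrin, where it is high, this p is a description and no support for a difference, and the call was lost with centred fold changes or without a base mean minimum. Adam8 was lower in Collagen I than in Printed, at -1.77 ± 0.46 (interval -2.67 to -0.87, adjusted p 0.0169), from the authors' deposited tables. Printed cultures, which held both gels, were thus apart from Fibrin in Adamts7 and Mmp28 and from Collagen I in Adam8. For Mmp2 and Adam12, which fell everywhere, no pair passed: the interval between Fibrin and Printed ran from -0.95 to 0.85 for Mmp2 and from -1.27 to 0.68 for Adam12, from the authors' deposited tables, so that differences of close to 1 in log2 units are not resolved.

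**Figure D5:**
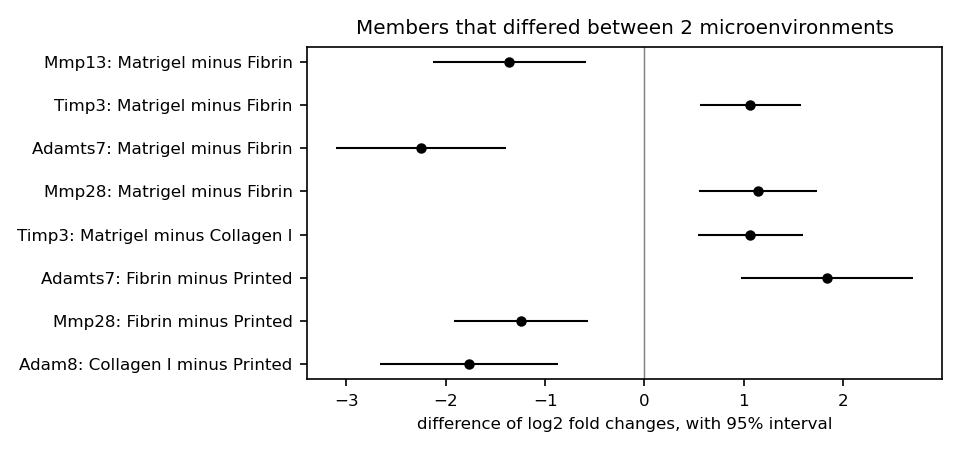
The 8 differences of log2 fold changes between 2 microenvironments that passed, computed from the authors' deposited tables, with 95% intervals. Timp3 and Mmp28 lie above 0 for Matrigel minus Fibrin, Adamts7 and Mmp13 below 0, and each interval leaves out 0.

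The 16 members without a call were Adam1a, Adam1b, Adam4, Adam9, Adam10, Adam11, Adam15, Adam17, Adam23, Adam33, Adamts10, Adamtsl3, Mmp11, Mmp23, Timp1 and Timp2. Their log2 fold changes in the authors' deposited tables ran from -0.95 (Mmp23 in Collagen I) to 0.97 (Adam23 in Fibrin), with standard errors of 0.16 to 0.42. A missing call does not show equal levels, since the least abundant had base means near 8.32 in the authors' deposited tables.

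Genes that act with these proteases were counted from 4 lists. Of 20 tested activators, surface anchors and inhibitors, 3 rose and 1 fell in Matrigel, 1 and 1 in Fibrin, 2 and 2 in Collagen I, and 1 and 1 in Printed, in the authors' deposited tables. The shares of all genes changed in these comparisons were 6.62%, 8.51%, 11.2% and 3.42%, in the same order. Lrp1, the endocytic receptor that clears MMPs and TIMP3, fell in Matrigel (log2 -0.96 ± 0.18), Fibrin (-1.06 ± 0.20) and Collagen I (-0.96 ± 0.24) and was at 0.07 ± 0.25 in Printed in the authors' deposited tables. Plat, the tissue plasminogen activator gene, rose in Matrigel (0.90 ± 0.19), Collagen I (0.92 ± 0.21) and Printed (1.43 ± 0.21) and was at 0.63 ± 0.23 in Fibrin in the authors' deposited tables. A2m, which encodes the protease trap alpha-2-macroglobulin, rose in Fibrin (1.26 ± 0.33) and fell in Collagen I (-1.88 ± 0.42) in the authors' deposited tables. Furin and Reck, which encode a proenzyme convertase and a membrane inhibitor of MMPs, did not pass in any comparison.

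Of 22 tested ligands and receptors shed by ADAMs, 1 rose and 2 fell in Matrigel, 2 and 1 in Fibrin, 0 and 1 in Collagen I, and 0 and 1 in Printed, in the authors' deposited tables, beside the same shares of all genes (6.62%, 8.51%, 11.2% and 3.42%). Cdh1, the E-cadherin gene, rose in Matrigel (log2 0.90 ± 0.16) in the authors' deposited table, and Cdh2 and Il6ra fell there. In Fibrin, Notch1 (1.02 ± 0.20) and Cx3cl1 (1.33 ± 0.28) rose and Notch3 (-1.23 ± 0.25) fell in the authors' deposited table. Egfr fell in Collagen I (-0.97 ± 0.25) in the authors' deposited table. Jag1, a NOTCH ligand, fell in Printed (-0.69 ± 0.19) in the authors' deposited table. Of the 13 AP-1 and ETS factors, whose motifs are known from MMP promoters, 2 rose and 2 fell in Matrigel, 2 and 0 in Fibrin, 1 and 2 in Collagen I, and 1 and 0 in Printed, in the authors' deposited tables, again beside 6.62%, 8.51%, 11.2% and 3.42% of all genes. In Fibrin, where Mmp13 rose, the risen genes of this list were Ehf (log2 3.43 ± 0.34) and Fos (1.24 ± 0.30) in the authors' deposited table. Jun fell in Matrigel (-0.66 ± 0.18) and Collagen I (-0.66 ± 0.21) and was at -0.49 ± 0.23 in Fibrin in the authors' deposited tables. Of 3 tested astacins, a further family of zinc proteases, Tll1 fell in Matrigel (-1.02 ± 0.28), Collagen I (-1.39 ± 0.41) and Printed (-0.90 ± 0.28) in the authors' deposited tables, at base means of 15.0 to 17.6. Bmp1, the procollagen C-proteinase gene, did not pass in any comparison.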

How the data were processed

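The values were the authors' 4 deposited tables, 1 per microenvironment against 2D, with 0 columns of values per library. Per the submitters' processing notes, reads were handled with STAR 2.6.0b-1, Trim Galore 0.4.3, FastQC 0.72, DESeq2 1.22.1 and featureCounts 1.6.3, and the build was mm10. For the annotation, the strand setting and any term for passage, the answer is not given in the sources used here. Base means in the deposited tables are a signal: counts scaled by the authors' size factors and averaged over 6 libraries. Fold changes in the deposited tables are log2 values that the authors' fit shrank towards 0, with its standard error. Wald statistics, as deposited, are a score: the log2 value divided by its error. Each deposited p-value is two-sided and belongs to that score, and was adjusted by Benjamini-Hochberg, and missing after adjustment for genes of low base mean. The name of the deposited table for the printed cultures mentions collagen only, while the labels give Fibrin and Collagen I.

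Computed here with Python 3.11.15, pandas 2.3.3, numpy 2.4.6 and scipy 1.17.1 were the counts, levels, differences between microenvironments and promoter matches. The level in 2D is the median of the levels that the 4 tables imply, after bringing the tables to 1 scale. The level of another condition is the base mean times 2 less the level in 2D from the other 3 tables. Turning the sign of any table raised the median SD of the implied log2 level in 2D from 0.0102 to 0.0929 or more, which checked the direction. Values in every comparison were printed for members called in at least 1 comparison or difference, and others by counts and ranges with the most abundant named. Coordinates, counted from 1, are those of RefSeq on GRCm38 and exon lengths and overlaps those of GENCODE M21. Searches in protein sequences were not made here. The members and all gene lists were chosen with earlier results of these data known.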

Additional observations from a re-analysis of the deposited data

Results flagged for a closer look

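In 8 cases the effect of 2 microenvironments on a gene differed by a test of the difference itself, from the authors' deposited tables with Benjamini-Hochberg adjustment over all genes. Between Matrigel and Fibrin these were Adamts7 (-2.25), Mmp13 (-1.36), Timp3 (1.07) and Mmp28 (1.14), each as the log2 fold change in Matrigel minus that in Fibrin, with adjusted p 0.000109, 0.0454, 0.00712 and 0.0193. Mmp13 reached the base mean minimum only through the Fibrin table, where it is high, so that the minimum selects for this difference, and its call was lost without the minimum. Between Matrigel and Collagen I it was Timp3 (1.07, adjusted p 0.0216). Between Fibrin and Printed they were Adamts7 (1.84, adjusted p 0.00412) and Mmp28 (-1.24, adjusted p 0.0253), and between Collagen I and Printed Adam8 (-1.77, adjusted p 0.0169). No test for a library far from the others could be made, since each condition had 3 libraries and the authors' deposited tables hold no value per library.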

How the results depend on the processing

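For the 33 calls of a gene in a comparison, the ratio of levels kept the sign of the deposited fold change. Of these, 6 moved by at least their standard error. The other alternatives could hardly turn a sign, since they kept the fold changes or shifted them all by at most 0.035 on the log2 scale. Signs of the differences between microenvironments were not compared. In Printed the split of 2 risen and 3 fallen members became 1 and 0 at an adjusted p under 0.01, and 1 and 1 with an empirical null and with a base mean of 100 or more. With an adjusted p under 0.01 the members changed against 2D were 6 in Matrigel, 4 in Fibrin, 5 in Collagen I and 1 in Printed, and those that differed were 2 between Matrigel and Fibrin, 0 between Matrigel and Collagen I, 1 between Fibrin and Printed and 0 between Collagen I and Printed. With an empirical null, in which the Wald statistics are rescaled to their own spread, the counts against 2D were 3, 3, 2 and 2. The differences became 1 between Matrigel and Printed, 4 between Fibrin and Collagen I and 4 between Fibrin and Printed, where Mmp13 and Timp3 were added. With calls limited to log2 changes of at least 1 in size, 4 were left in Matrigel. With a base mean of 100 or more, 5 were left in Fibrin and 2 in Printed, and 2 differed between Matrigel and Fibrin and 1 between Fibrin and Printed, since fewer members were tested. Apart from the empirical null against 2D, the shares of all genes at these changed settings are not given here. Of the 33 calls of a gene in a comparison, 10 remained with the empirical null, 30 when adjusted over every gene with a p-value and 33 with fold changes centred on the median of abundant genes. The cause of these changes was not tested unless stated. Centring added Adam9 and Adamtsl5 in Collagen I. No paired analysis was possible because the deposited tables hold no value per library, and for the same reason no library could be left out. Depth limits Mmp10, Mmp12 and the other genes with base means under 10, for which no change can be called or excluded.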
